A study of Mus musculus with 6 samples.

Results

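The interleukins and their receptors were taken as every named gene on the array whose symbol begins with Il followed by a digit, which gave 76 of the 19505 named genes. Since 2634 probe sets carry no name here, the set is not complete, and Il2rg, Il1rl1, Il12b and Il11ra1 are not in it. Each was measured by 1 probe set, and all 76 matched a mouse RefSeq gene by both symbol and gene ID. They were classed as 36 ligands, 36 receptor chains, 2 receptor antagonists (Il1rn and Il1f5) and 2 soluble binding proteins (Il18bp and Il22ra2), with Il1f10 counted among the ligands. Gene expression was measured on 6 Affymetrix arrays, 3 of C57BL/6J mice gavaged with H-Exo and 3 of mice gavaged with L-Exo, with the tissue labelled liver. The study's methods describe H-Exo as CD63+A33+ exosomes from the pooled feces of mice kept on HFD (a high-fat diet), and L-Exo as those of mice on regular chow. The recipients in both groups, adult male mice per those methods, themselves ate HFD and received 2000000000 exosomes a day for 14 days, so the groups differ in the donors' diet, and no array without exosomes was used here. Whether the 3 arrays of a group stand for 3 animals is not stated, so each p-value reflects only how far these arrays spread, which may be technical.

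Interleukins are secreted proteins through which leukocytes and epithelial cells signal to each other. Most act through receptors built from a chain that recognizes the ligand and a shared chain, which pass the signal through JAK kinases and STAT transcription factors, whereas the receptors of the IL-1 and IL-17 families signal through MyD88 and Act1 towards NF-κB. In the gut and the liver, epithelial cells carry receptors for IL-22, IL-13 and IL-17, while the ligands are made mainly by lymphocytes and myeloid cells, with IL-18 and IL-33 among those that epithelial cells make themselves.

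A value was called above background when it exceeded 95% of the 5222 negative control probes on the same array, a level between 7.97 and 8.41 on the log2 scale. Between 22.3% and 26.7% of the probe sets of an array lay above it. The labelled tissue was checked against marker genes. Of 11 hepatocyte markers 1 (Cps1, which the small intestine also makes) lay above background on all 6 arrays and 9 on none, and Ttr, Ahsg, Fga and Fgb, which define hepatocytes, were among the 9. Of 11 intestinal epithelial markers 9 were above it on all 6, among them Vil1, Cdx2 and Gpa33. These arrays therefore go against the liver label, and the values below are given for the 2 exosome groups without a tissue. In whole tissue RNA, fewer cells of a type and less RNA per cell cannot be told apart. The L-Exo replicate 1 and H-Exo replicate 1 arrays stood apart, with mean correlations of 0.951 and 0.963 with the other arrays against 0.971 to 0.975 for the remaining 4.

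Few interleukin genes gave a signal over the negative controls, and those on every array were all receptor chains. Of the 76 genes 6 lay above background on all 6 arrays (7.89%, beside 19.1% of all named genes), 3 on some arrays and 67 on none (beside 69.1% of all named genes). The 6 were Il17rc, Il22ra1, Il10rb, Il13ra1, Il4ra and Il6st, that is 6 of the 36 receptor chains and 0 of the 36 ligands. The 3 genes above background on some arrays were the ligands Il18 and Il15 and the binding protein Il18bp. The count of 6 was the same with the 90th percentile of the controls and fell to 1, Il17rc, with the 99th. A value below background does not show that a gene is silent, since its transcripts can lie under what these probes resolve.

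**Figure D1:**
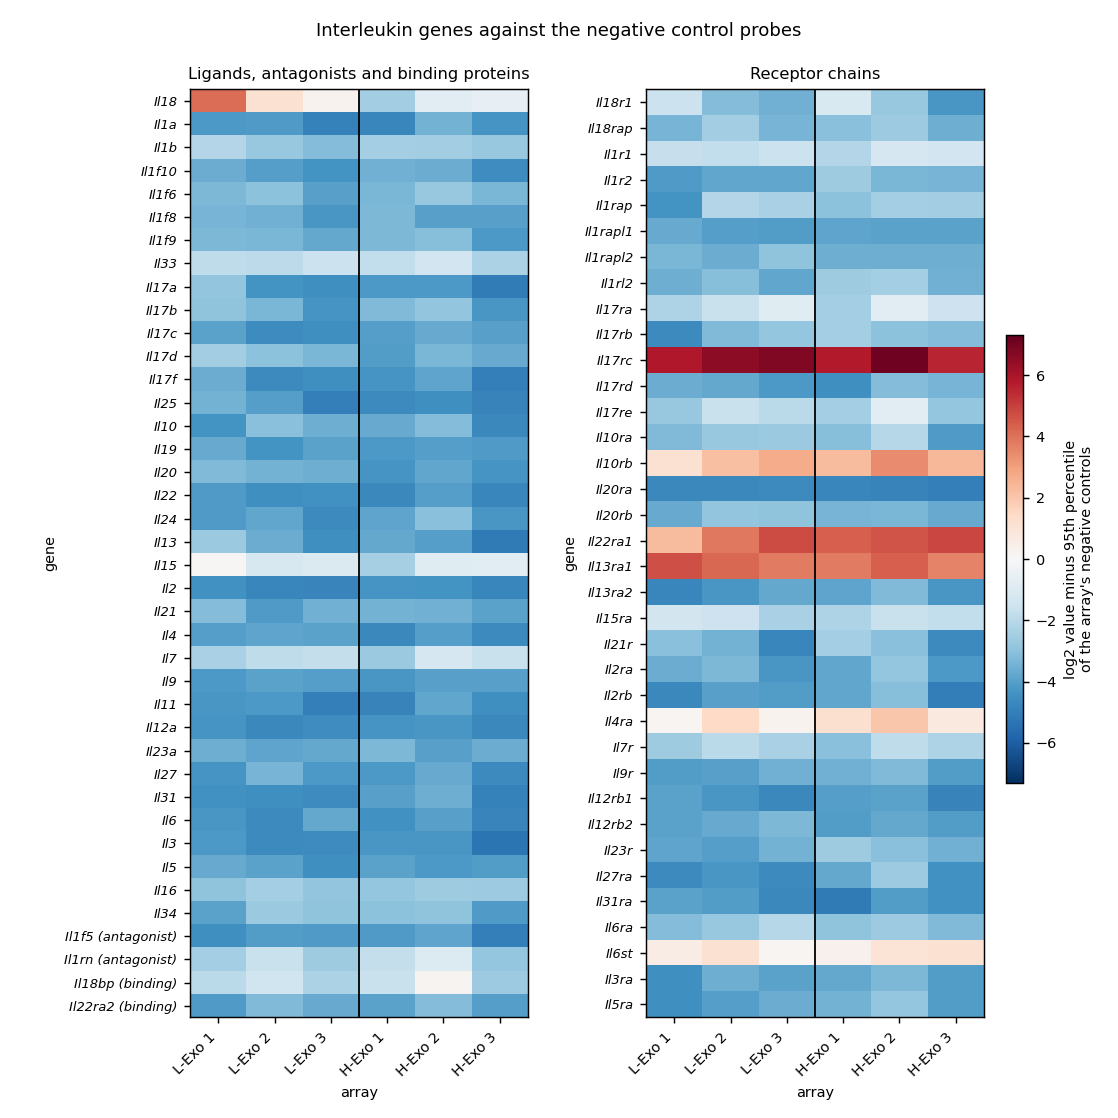
Each cell is the log2 value of 1 gene on 1 array minus the background level of its array, with genes in rows grouped by role and family and the 6 arrays in columns. Red cells lie above background: the 6 receptor chains are red on all 6 arrays and Il18 on the 3 L-Exo arrays, while most cells are blue.

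The chains that were measurable fell into known receptors. Both chains of the IL-22 receptor were above background on all 6 arrays. Il22ra1 encodes the chain that binds IL-22 on epithelial cells, and it was at 10.48, 12.00 and 13.06 on L-Exo replicates 1, 2 and 3 and at 12.69, 12.57 and 13.31 on the H-Exo arrays. The H-Exo arrays lay close together and the L-Exo arrays spread widely, with the highest L-Exo value inside the H-Exo range. The means were 11.85 ± 1.29 (SD, n = 3) and 12.85 ± 0.40 (SD, n = 3), a log2 difference of 1.01 (95% confidence interval -0.30 to 2.31, limma adjusted p = 0.988), the largest positive one among the 76 genes. It did not pass the test, and leaving out L-Exo replicate 1 gave 0.32, leaving out replicate 3 instead 1.61.

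Il10rb encodes the shared second chain of the receptors for IL-10, IL-22 and related ligands. It was at 9.32, 10.38 and 11.01 in L-Exo and at 10.63, 11.41 and 10.82 in H-Exo, and as with Il22ra1 the lowest value was that of L-Exo replicate 1. The difference of 0.72 on the log2 scale (standard error 0.45, adjusted p = 0.988 in limma) was within the spread of the arrays, and it was 0.26 without L-Exo replicate 1. Il10ra, the chain that binds IL-10, lay below background on all 6 arrays (values from 4.30 to 5.87), as did Il20ra and Il20rb, the chains for IL-20 (values up to 5.40). These partner chains were named after their values had been seen.

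Both chains of the type II receptor for IL-4 and IL-13, the form used mainly outside the blood cells, were above background as well. Il4ra, its signalling chain shared with the receptor of lymphocytes, was at 8.36, 9.63 and 8.59 in L-Exo and at 9.51, 9.99 and 9.13 in H-Exo. The groups overlapped, and the difference of 0.69 on the log2 scale (standard error 0.40, adjusted p = 0.988 in limma) was 1.07 without L-Exo replicate 2, 0.43 without L-Exo replicate 1 and 0.34 with array weights. Il13ra1, which binds IL-13, was at 12.91, 12.33 and 12.11 in L-Exo and at 12.14, 12.32 and 12.01 in H-Exo. The highest value was that of L-Exo replicate 1, and the log2 difference of -0.30 (95% confidence interval -1.01 to 0.41) was -0.0653 when this array was left out and -0.13 with array weights. The decoy receptor Il13ra2 lay below background on all 6 arrays (values from 3.40 to 4.76).

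Of the IL-17 receptor chains only Il17rc was measurable. It forms the receptor for IL-17A and IL-17F together with Il17ra, and its values were 14.03, 14.71 and 15.06 in L-Exo and 14.14, 15.09 and 13.96 in H-Exo, at least 5.54 above background on every array. The 2 groups covered nearly the same range, with a log2 difference of -0.20 (95% confidence interval -1.11 to 0.71). Leaving out 1 array put it between -0.55 and 0.03. Il17ra itself lay below background on all 6 arrays, with values from 5.86 to 7.43, and the difference was 0.01 (standard error 0.47). Il17rb, the chain that binds IL-25, lay below it too, at 3.54, 4.96 and 5.49 in L-Exo and 5.86, 4.96 and 5.23 in H-Exo, with a log2 difference of 0.69 (standard error 0.50). The low L-Exo replicate 1 value carried much of this difference, which was 0.13 without that array.

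Il6st encodes gp130, the chain through which IL-6, IL-11 and related cytokines signal. It was at 8.74, 9.25 and 8.45 in L-Exo and at 8.67, 8.96 and 9.50 in H-Exo, never more than 1.09 above background. The groups overlapped, the log2 difference was 0.23 (standard error 0.35), and without H-Exo replicate 3 it was -0.00134. Il6ra, which binds IL-6, lay below background on all 6 arrays with values from 5.02 to 6.25.

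**Figure D2:**
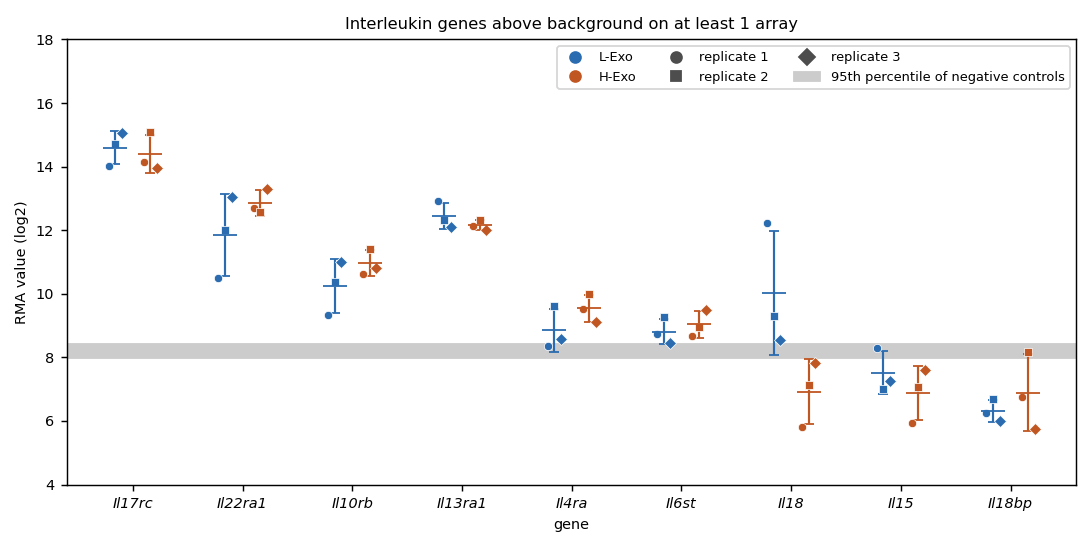
The log2 RMA values of the 9 genes above background on at least 1 array, for L-Exo (blue) and H-Exo (orange), with 1 marker shape per replicate number, the mean as a dash and the SD (n = 3) as a bar. The grey band spans the 6 arrays' background levels, 7.97 to 8.41: Il18 has its 3 L-Exo points above the band and its 3 H-Exo points below it, and in every other gene the 2 groups overlap.

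Il18 was the ligand that differed most between the groups. It encodes IL-18, a cytokine stored as a precursor in epithelial cells and macrophages, cut to its active form by caspase-1 and held in check by IL-18 binding protein. Its values were 12.24, 9.30 and 8.54 on L-Exo replicates 1, 2 and 3 and 5.81, 7.14 and 7.82 on the H-Exo arrays. All 3 L-Exo arrays lay above background and all 3 H-Exo arrays below it, and the groups did not overlap. The split over background depends on the percentile chosen. At most 98.9% of an array's negative controls lay below Il18, so on no array was it above their 99th percentile. Its lowest L-Exo value, 8.54 on replicate 3, stood beside a background of 8.31 on that array. The means were 10.03 ± 1.95 (SD, n = 3) and 6.92 ± 1.02 (SD, n = 3), and the log2 difference of -3.11 (95% confidence interval -5.08 to -1.13) ranked 108 of 22206 probe sets by p. In limma it had an unadjusted p of 0.00600 and an adjusted p of 0.988, so it did not pass the test. By the methods' t-test the unadjusted p of Il18 was 0.0711, over their threshold of 0.05, so the unadjusted call was lost there, as it was for Il27ra and Il1r2. An exact permutation test gave a two-sided p of 0.1, the smallest that 3 arrays against 3 allow.

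Because the H-Exo values of Il18 were not above background, only a bound on its fold was computed. Each H-Exo array entered with the higher of its own value and the lowest signal among its probe sets above background, set against the mean of L-Exo, and Il18 was at least 3.44-fold lower in H-Exo. The bound takes the 95th percentile of the controls as background. It has no counterpart at the 99th, which no L-Exo value of Il18 exceeded. The bound leaves out the spread between arrays, and it rested on the stand-apart L-Exo replicate 1 array in part, since leaving that array out gave at least 1.60-fold. Leaving out another L-Exo array raised it, to 4.43-fold for replicate 2 and 5.76-fold for replicate 3. The log2 difference stayed negative with every array left out in turn, from -3.85 to -2.001.

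Genes that act on IL-18 or transmit it were examined beside it. Casp1, caspase-1, was at 15.69, 14.51 and 14.47 in L-Exo and at 13.26, 14.59 and 15.52 in H-Exo, and the inflammasome adaptor Pycard was at 14.44, 11.60 and 11.60 against 12.46, 11.74 and 11.94. The groups overlapped in both genes, and L-Exo replicate 1 held the highest L-Exo value of Il18, Casp1 and Pycard alike. The log2 differences were -0.44 (standard error 0.57) for Casp1 and -0.50 (standard error 0.69) for Pycard, and 0.34 (standard error 0.37) for Gsdmd, the pore protein that caspase-1 cleaves, and all 3 genes were above background on all 6 arrays. The direction turned for Pycard without L-Exo replicate 1 (0.45) and with array weights (0.12), and for Casp1 without H-Exo replicate 1 (0.16) and with array weights (0.0388). The inflammasome sensor Nlrp3 lay below background on all 6.

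Il18bp was at 6.24, 6.69 and 6.00 in L-Exo and at 6.74, 8.17 and 5.75 in H-Exo. H-Exo replicate 2 was the 1 array above background, and the log2 difference of 0.58 (standard error 0.55) was -0.06 without it. The receptor chains Il18r1 and Il18rap, which T cells and NK cells carry, lay below background on all 6 arrays, with log2 differences of 0.06 (standard error 0.75) and 0.03 (standard error 0.33). Il15, which sustains NK cells and intraepithelial lymphocytes, was at 8.28, 7.00 and 7.27 in L-Exo and at 5.94, 7.07 and 7.60 in H-Exo. Its highest value was on L-Exo replicate 1 and its lowest on H-Exo replicate 1, as for Il18, and the groups overlapped, with a log2 difference of -0.65 (standard error 0.49) that was -0.18 without H-Exo replicate 1.

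**Figure D3:**
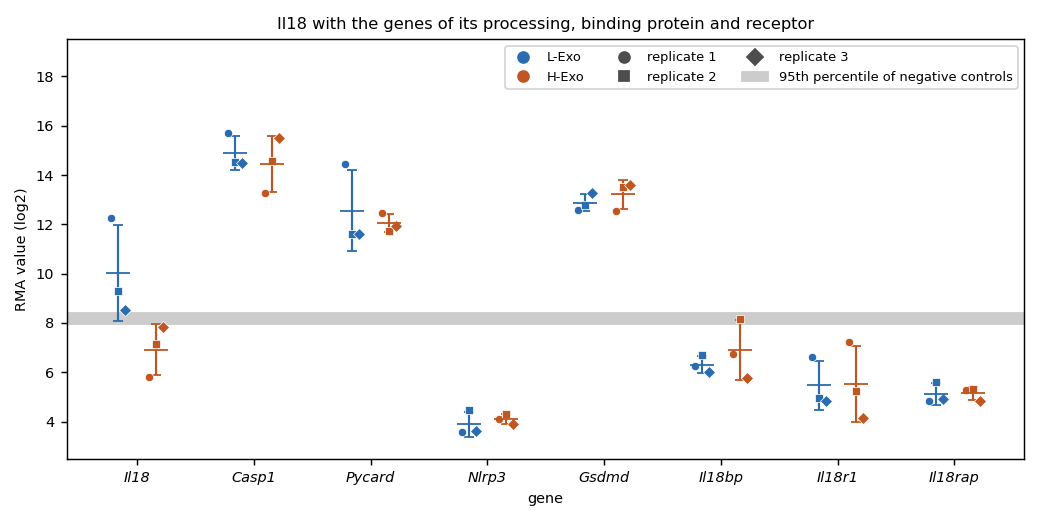
The log2 RMA values of Il18, of Casp1, Pycard, Nlrp3 and Gsdmd, of Il18bp and of the receptor chains Il18r1 and Il18rap, with 1 point per array, the mean as a dash, the SD (n = 3) as a bar and the grey band as background (7.97 to 8.41). Il18 is the gene whose L-Exo (blue) and H-Exo (orange) points do not overlap, while the groups overlap in Casp1 and Pycard, whose highest L-Exo point is also replicate 1.

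The sequence around the start sites was described next. RefSeq promoters of 300 bases (250 before and 50 after the start, build GRCm38.p6) were at hand for 59 of the 76 genes. They were searched on both strands and at any position for a GC box (GGGCGG, the site of Sp1-type factors), a TATA box (TATAAA) and a STAT motif (TTCNNNGAA). All 5 genes with a promoter among those above background on all 6 arrays (Il17rc, Il22ra1, Il13ra1, Il4ra and Il6st) held a GC box, against 12 of the other 54, where 35.9% of 27025 promoters hold one. Named genes of any kind that were above background on all 6 arrays held it in 66.0% of promoters, and those above it on none in 40.2%. Of the ligands 3 of 26 held a GC box and 10 of 26 a TATA box (14.2% of all promoters). Of the receptors 14 of 30 held a GC box and 2 of 30 a TATA box. The STAT motif was in 4 of 26 ligands and in 4 of 30 receptors, beside 8.47% of all promoters. The promoters of Il22ra1 (chr4:135727909-135728208, plus strand), Il17rc (chr6:113471205-113471504, plus strand) and Il18 (chr9:50554450-50554749, plus strand) are printed as examples, with the matches in capitals.
Il22ra1: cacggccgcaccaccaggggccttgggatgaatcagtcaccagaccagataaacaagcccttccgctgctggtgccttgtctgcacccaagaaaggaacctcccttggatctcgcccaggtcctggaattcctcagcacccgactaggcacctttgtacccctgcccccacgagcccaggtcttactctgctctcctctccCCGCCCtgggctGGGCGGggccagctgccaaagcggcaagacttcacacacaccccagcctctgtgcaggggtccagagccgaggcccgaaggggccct
Il17rc: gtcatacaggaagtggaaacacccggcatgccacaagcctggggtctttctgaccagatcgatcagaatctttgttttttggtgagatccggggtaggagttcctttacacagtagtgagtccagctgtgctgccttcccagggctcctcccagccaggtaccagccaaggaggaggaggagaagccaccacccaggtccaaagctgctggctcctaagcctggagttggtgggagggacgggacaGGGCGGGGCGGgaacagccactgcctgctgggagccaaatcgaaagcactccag
Il18: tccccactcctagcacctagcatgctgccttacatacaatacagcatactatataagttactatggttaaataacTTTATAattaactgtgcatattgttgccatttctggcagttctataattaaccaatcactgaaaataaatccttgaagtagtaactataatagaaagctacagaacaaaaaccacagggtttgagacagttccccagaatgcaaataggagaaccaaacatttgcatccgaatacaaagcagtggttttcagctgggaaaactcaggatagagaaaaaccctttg
The capitals mark GC boxes in Il22ra1 (1 on each strand) and Il17rc (2 that overlap by 1 base). In Il18, which holds no GC box in this window, they mark TATA box letters on the opposite strand, far before the start. Where a match lay was not taken into account, so a TATA box here means the letters only. Il18 also had 1 CpG in its 300 bases, against 11 in Il22ra1, 7 in Il17rc and a median of 7 over all promoters. A match is a run of letters and does not show that a factor binds there.

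Most ligands, including the best known of inflammation, gave no signal over background. Il6 and Il10 encode a pro-inflammatory and an anti-inflammatory cytokine. The study reported more IL-6 protein after H-Exo in plasma, in adipose tissue and in the liver of germ-free mice. It also reported less IL-10 protein in adipose tissue, and more IL-6 RNA in liver macrophages by qPCR. Those are other measures or samples than these array values. On the arrays Il6 was at 3.91, 3.53 and 4.55 in L-Exo and at 3.94, 4.004 and 3.60 in H-Exo. Il10 was at 3.84, 5.11 and 4.77 against 4.66, 4.82 and 3.72. At most 27.6% of an array's negative controls lay below Il6 and 46.0% below Il10, so neither could be told from the controls. The log2 differences were -0.15 (standard error 0.34) and -0.17 (standard error 0.43). The IL-1 family cytokines Il1a, Il1b and Il33, which injured epithelium or activated myeloid cells release, had log2 differences of 0.26, 0.12 and -0.05 (standard errors from 0.30 to 0.35), below background on all 6 arrays. Il1rn, which blocks the IL-1 receptor, was at 5.71, 6.53 and 5.70 in L-Exo and at 6.62, 6.97 and 5.60 in H-Exo, also below it, with a log2 difference of 0.41 (standard error 0.42).

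Il13, Il17a, Il25 and Il22 lay below background on all 6 arrays. Il13, which drives mucus production, had a log2 difference of -0.66 (standard error 0.49), Il17a one of -0.56 (standard error 0.45), Il25, the tuft cell cytokine, one of -0.52 (standard error 0.38) and Il22 one of -0.12 (standard error 0.28). For Il13, Il17a and Il25 the highest of the 6 values was that of L-Exo replicate 1, and without that array the differences were -0.23, -0.07 and -0.19. Of 11 markers of T cells and NK cells 10, among them Cd3e, Cd4 and Cd8a, were above background on no array and Gzma, a granule protease, was so on 4. Tuft cells make IL-25, and of 7 tuft cell markers 6 were above background on no array and 6 were higher in H-Exo (median log2 difference 0.68). Mast cells can make IL-13, and of 6 mast cell markers 4 were above background on no array and 1 was higher in H-Exo (median -0.71). The mast cell protease Mcpt1 was above background on L-Exo replicate 3 alone (13.1), where Il13 had its lowest L-Exo value, 3.81. Of 5 markers of type 2 and type 3 innate lymphoid cells 3 were above background on no array and 4 were higher in H-Exo (median 0.18). The part of these cell types in the differences of Il25 and Il13 was not tested.

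Over the whole family, no gene passed limma's threshold of an adjusted p under 0.05, 0 of 76 beside 0 of all 22206 probe sets (0%). At an unadjusted p under 0.05 there were 5 (6.58%), beside 4.06% of all probe sets, so a share near that of all genes. The groups did not overlap in 3 genes that were higher in H-Exo (3.95%, beside 4.9% of all probe sets) and in 4 that were lower (5.26%, beside 4.71%). A difference above 0 was found in 44 of the 76, beside 48.9% of all probe sets. The median difference was 0.05, and that of all probe sets -0.01.

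Of the 5 genes with an unadjusted p under 0.05, Il18 was the 1 above background on any array. Il27ra, the receptor chain for IL-27 on T cells, was at 3.54, 3.89 and 3.68 in L-Exo and at 4.59, 5.32 and 4.02 in H-Exo. Every H-Exo array lay above every L-Exo array, with a log2 difference of 0.94 (standard error 0.37). Il1r2, a decoy receptor that takes up IL-1, was at 4.03, 4.35 and 4.50 against 5.73, 4.65 and 5.02, also without overlap, with a log2 difference of 0.84 (standard error 0.35). These values lay among those of the negative controls, since at most 55.5% of the controls of an array were below Il27ra and 61.7% below Il1r2.

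The other 2 were lower in H-Exo. Il20, a ligand of the IL-10 family that acts on epithelium, was at 4.94, 4.70 and 4.72 in L-Exo and at 4.03, 4.21 and 4.10 in H-Exo. The arrays of each group lay close together and the groups did not overlap, with a log2 difference of -0.67 (standard error 0.27). Il17d, a member of the IL-17 family, was at 5.64, 5.17 and 4.98 against 4.24, 4.66 and 4.74, with a log2 difference of -0.72 (standard error 0.31). The unadjusted limma p was 0.0309 for Il27ra, 0.0389 for Il1r2, 0.0354 for Il20 and 0.0475 for Il17d, and the adjusted p was 0.988 for each of these 4. Groups also did not overlap in Il23r, the IL-23 receptor chain, which was higher (log2 difference 0.76, standard error 0.35), and in Il4, which was lower (-0.50, standard error 0.28), both named after their values had been seen. No fold is given for these genes, which lay below background on all 6 arrays.

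Receptor chains and ligands were then set side by side. Of the 36 receptor chains 25 had a difference above 0 and 11 below, with a median of 0.14, and of the 36 ligands 16 and 20, with a median of -0.03. Of the genes without overlap, the 3 that were higher in H-Exo were receptors (8.33% of 36, beside 4.9% of all probe sets) and the 4 that were lower were ligands (11.1% of 36, beside 4.71%), and 6 of these 7 lay below background on all 6 arrays. The median of the receptors was above 0 under each alternative run, from 0.07 to 0.25, while that of the ligands turned positive with array weights (0.05) and when L-Exo replicate 1 (0.03), L-Exo replicate 2 (0.03) or H-Exo replicate 3 (0.06) was left out. Since 30 of the 36 receptors and 34 of the 36 ligands lay below background on all 6 arrays, these differences are mostly those of values among the negative controls. By family, receptors had a difference above 0 in 7 of 8 of the IL-1 family, 4 of 5 of the IL-17 family, 6 of 9 of the IL-2 and IL-4 families, 4 of 7 of the IL-6 and IL-12 families, 2 of 2 for IL-3 and IL-5 and 2 of 5 of the IL-10 family.

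**Figure D4:**
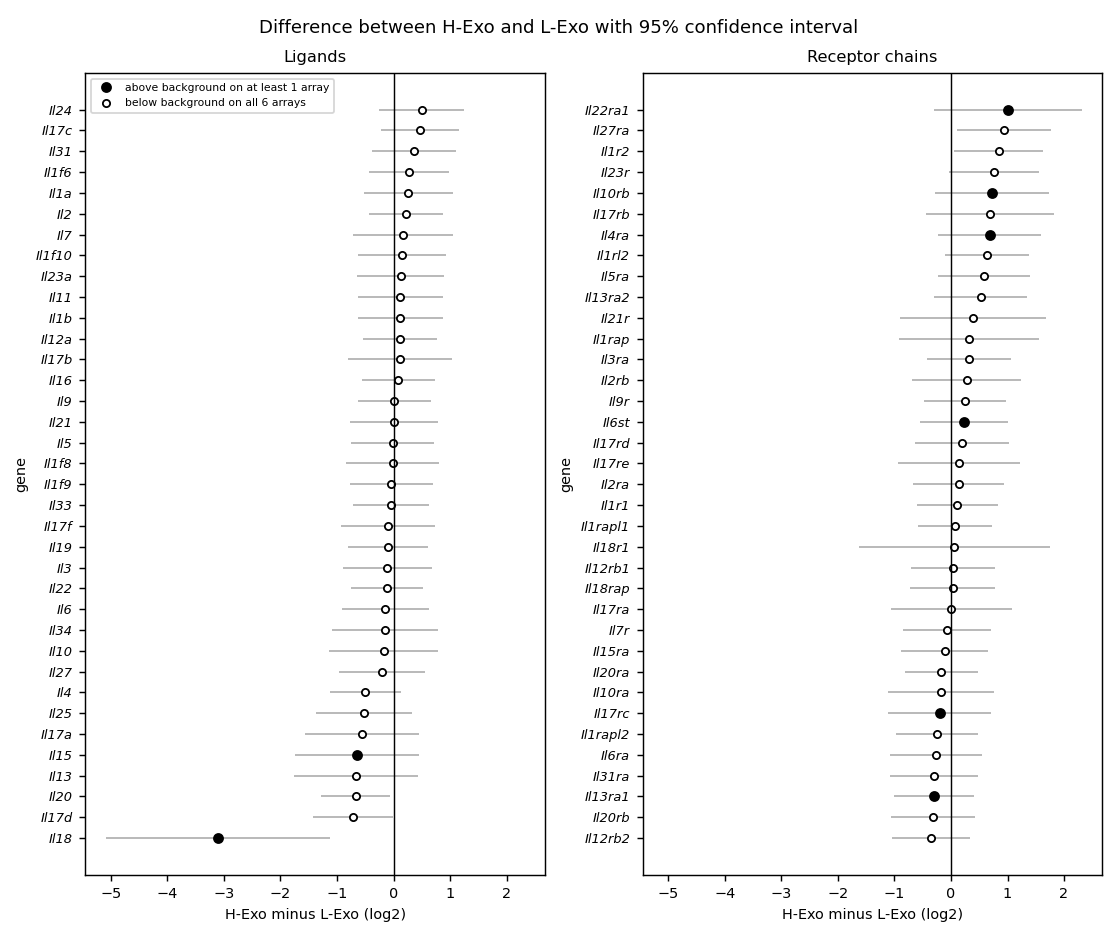
The log2 difference H-Exo minus L-Exo (horizontal axis) of the 36 ligands (left) and 36 receptor chains (right), each with its 95% confidence interval from limma, ordered by size. Filled points are genes above background on at least 1 array: Il18, at -3.11, lies apart from all other ligands, and Il22ra1 is at the top of the receptors at 1.01 with an interval that includes 0.

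The values of most lymphocyte markers were higher in H-Exo. Of 8 B cell markers 8 were higher in H-Exo (median log2 difference 1.60) and of 11 markers of T cells and NK cells 10 (median 0.75). None of them reached an adjusted p under 0.05 in limma. At an unadjusted limma p under 0.05 there were 4 of the 8 and 4 of the 11, beside 4.06% of all probe sets. By that p Gzmb ranked 5 and Ms4a1 10 of 22206 probe sets, both below background on all 6 arrays. The same count was 1 of 8 for macrophages and dendritic cells and 0 of 11 for the intestinal epithelium. The summed level of the B cell markers on the log2 scale ranged from 7.89 to 8.03 on the L-Exo arrays and from 8.59 to 10.9 on the H-Exo arrays, and that of the T cell and NK cell markers from 8.88 to 11.5 and from 10.1 to 12.2. The T cell and NK cell sum was mostly Gzma, and without it (for this and the sums below, a choice made after seeing the values) the ranges were 8.37 to 8.84 and 8.95 to 9.99. Of the 8 B cell markers 6, among them Ms4a1 and Pax5, were above background on no array. The other B cell markers were above it on H-Exo arrays only, Cd79a on replicates 1 and 2 (8.57 and 8.82) and Cd79b on replicate 2 (9.65). The T cell markers Cd3d and Cd3e were above background on no array. Markers of macrophages and dendritic cells, which make IL-18, had summed levels from 14.9 to 17.5 on the L-Exo and from 15.9 to 16.7 on the H-Exo arrays, and 1 of 8, Lyz2, was above background on all 6 arrays. That sum was nearly all Lyz2, and without it the ranges were 8.57 to 9.19 and 9.08 to 9.27. Of the 11 hepatocyte markers 1 was higher in H-Exo (median log2 difference -0.75), and 3 had an unadjusted limma p under 0.05. Their summed levels ran from 12.7 to 13.1 in L-Exo against 11.7 to 13.1, nearly all of it Cps1 (without which 9.23 to 11.3 against 8.12 to 8.65). Alb, like Il18, was above background on the 3 L-Exo arrays and on no H-Exo array. Its log2 difference of -3.61 (standard error 0.61, adjusted p = 0.761 in limma) ranked 6 of 22206 probe sets by p. The summed level of the intestinal epithelial markers lay from 22.1 to 22.3 and from 22.2 to 22.3. The part of these cell types in the differences of the interleukin genes was not tested.

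The genes that carry the signal below these receptors were examined next. Of 40 signalling and partner genes without an Il symbol, 35 were measured and 11 lay above background on all 6 arrays, namely the kinases Jak1, Jak2 and Tyk2, the transcription factors Stat3 and Stat6, which act below the IL-22 and the IL-4 and IL-13 receptors, the adaptors Myd88 and Irak2, the feedback inhibitor Socs2, and Casp1, Pycard and Gsdmd. Stat3 was at 9.40, 9.48 and 10.30 in L-Exo and at 10.25, 10.23 and 9.53 in H-Exo, a difference of 0.28 (standard error 0.36), and Stat6 had a difference of 0.13 (standard error 0.38). Neither difference exceeded its standard error. Of the 35 genes 20 had a difference above 0 and 15 below, with a median of 0.16, and 0 passed limma's test at an adjusted p under 0.05 (smallest adjusted p 0.988).

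At an unadjusted limma p under 0.05 there were 2 of the 35 (5.71%, beside 4.06% of all probe sets), a share near that of all probe sets. Osmr, which pairs with gp130 in the oncostatin M receptor and with Il31ra in the IL-31 receptor, was at 3.92, 4.74 and 4.71 in L-Exo and at 5.56, 5.57 and 6.17 in H-Exo, a log2 difference of 1.31 (standard error 0.35). Socs3, which STAT3 induces and which switches off gp130 signalling, was at 4.89, 4.83 and 4.58 against 3.91, 3.79 and 3.81, a log2 difference of -0.93 (standard error 0.27). The unadjusted limma p was 0.00411 for Osmr and 0.00774 for Socs3, and the adjusted p was 0.988 for both. In both genes the groups did not overlap, and in both all 6 values lay below background. Next by p were Lifr, the receptor of leukemia inhibitory factor, with a log2 difference of 0.65 (standard error 0.30), Csf1r, the receptor for IL-34 and CSF1, with 0.74 (standard error 0.41), Stat4, which acts below IL-12, with 0.53 (standard error 0.36), and Sigirr, an inhibitor of IL-1 family receptors, with 0.53 (standard error 0.41), none above background on any array.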

How the data were processed

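The authors ran RMA (background correction, normalization between arrays and 1 summary value per probe set) in Transcriptome Analysis Console 4.0, per the labels, and deposited log2 values. A genome build, not given in the sources used here, does not enter these values. The labels give 90 ng of total RNA per array. Interleukin genes were chosen by symbol, and the members, gene lists and tests were chosen with earlier results of these data known. Named are the genes above background on all 6 arrays, those with an unadjusted p under 0.05, those with the 4 largest differences in each direction among genes above background on any array, Il18, Il22ra1, Il17rb and Il1rn, the 9 ligands Il6, Il10, Il1b, Il1a, Il33, Il25, Il13, Il17a and Il22, and the 6 signalling genes with the smallest p. The deposited log2 values of 22206 probe sets, without 5222 negative and 1418 other control rows, were fitted with limma 3.58.1 (R 4.3.3), H-Exo minus L-Exo, two-sided, with Benjamini-Hochberg adjustment over all probe sets, and the fit was tested on simulated data. Gene symbols came from the platform annotation; 19572 probe sets carry 1 symbol and 2634 are unnamed here. Marker and signalling lists came from textbook knowledge. Alternatives were trend and robust variance, array weights, a filter on the 30% dimmest probe sets, further normalization, the replicate block, other background percentiles, the methods' t-test and leaving out each array. The number of arrays limits the precision.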

Additional observations from a re-analysis of the deposited data

How the results depend on the processing

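No interleukin gene passed an adjusted p of 0.05 in limma under any alternative run. Over all probe sets 0 passed, 10 with array weights and 0 to 1 with an array left out (1 when that was L-Exo replicate 1 or H-Exo replicate 3). Without adjustment, the methods' t-test at 0.05 gave 921 probe sets, 3 interleukin genes and 4 signalling genes, beside 901, 5 and 2 in limma. Il20 and Il17d were in both, and Il18, Il27ra and Il1r2 were not called by the t-test. Il4 was called by the t-test alone (unadjusted p 0.0143, against 0.103 in limma). After adjustment the t-test gave 0 probe sets. Whether numbers shared by the groups pair the samples was not settled. The correlations of same-numbered deviations were 0.219, 0.0429 and 0.182, and those of different numbers were not computed. With the number as a replicate block 0 probe sets and 0 interleukin genes passed. At an unadjusted p under 0.05 in limma this block gave 1154 probe sets and 4 interleukin genes, beside 901 and 5 without it. With the 99th percentile of the controls as background 1 gene, a receptor, lay above it on all 6 arrays, and Il18 lay above it on no array. Trend and robust variance, the dim filter, the replicate block, averaging the probe sets of a gene and the t-test leave a difference as it is. Only array weights, further normalization and leaving out an array could change its sign. Of 328 differences of the 24 named interleukin genes under alternatives, fixed ones included, 13 changed sign. With array weights these were Il22 (0.0589), Il33 (0.0622) and Il6 (0.0916). With 1 array left out, the log2 difference ranged from -0.54 to 0.17 for Il10, -0.55 to 0.0280 for Il17rc, -0.0634 to 1.15 for Il18bp, -0.0732 to 0.38 for Il1b, -0.15 to 0.11 for Il33, -0.38 to 0.13 for Il6 and -0.00134 to 0.45 for Il6st. The cause was not tested. The filter on dim probe sets removed 32 of the 76 genes. Signal over background limits what can be read, since 67 genes lay below it on all 6 arrays.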
